A study of Homo sapiens with 7 samples.

Results

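The type 2 cytokine genes IL13, IL4, IL5, IL9 and CSF2 and the receptor genes IL13RA1, IL13RA2, IL4R, IL9R and IL5RA were examined in 7 Hodgkin lymphoma (HL) cell lines. The members were taken by name, and every probe set annotated with a member alone was used. Each probe set combines several short probes that read the same stretch of a transcript. Of the 10 genes, 8 were read, by 17 of the 54675 probe sets of the array, while IL9 and CSF2 were not analysed here. The 3 cytokines and 5 receptors stand among 19775 genes read in all. The lines L-428, L-540, L-1236, HDLM-2, U-HO1, KM-H2 and SUP-HD1 were profiled with 1 array each. The labels call all of them Hodgkin lymphoma cell lines and name no treatment, genotype or time, and a characteristic of HDLM-2 is spelled HDML-2 there. Each line descends from a single patient, so a line stands for itself and not for a class of tumour.

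Type 2 cytokines are secreted by T-helper type 2 cells, innate lymphoid cells and mast cells, and they drive IgE production, eosinophil growth and mucus secretion. IL13 and IL4 are neighbours on chromosome 5 and share a receptor built from IL4R and IL13RA1, while IL4 can also use IL4R together with the common gamma chain IL2RG. Both forms signal through JAK kinases to the transcription factor STAT6. IL13RA2 binds IL13 with high affinity and is known mainly as a decoy. IL5 acts through its own alpha chain IL5RA and the common beta chain CSF2RB, and IL9 through IL9R and IL2RG. Hodgkin/Reed-Sternberg cells, the malignant cells of HL, are known to produce type 2 cytokines, and IL13 has been described as a growth factor that they make for themselves.

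Promoter sequences of 6 of the 8 measured members were found in the RefSeq promoter table of build GRCh38.p14, and 4 of them are printed because they belong to the cytokines and receptors that differed most between the lines. Each run holds the 250 bases before an annotated start site, on the coding strand. Capitals mark matches, on either strand, to 4 patterns, namely a GATA factor pattern (AGATAA or, with other outer bases, AGATAG and then TGATAA as well as TGATAG), an NFAT core (GGAAA), a STAT pattern (TTCNNNNGAA) and a TATA box (TATAAA). IL13 has 2 annotated starts 1651 bases apart, and the downstream one is shown. It lies at chr5:132657923-132658172 on the plus strand, IL4 at chr5:132673739-132673988 on the plus strand, IL13RA1 at chrX:118727356-118727605 on the plus strand and IL5RA at chr3:3110375-3110624 on the minus strand.
IL13: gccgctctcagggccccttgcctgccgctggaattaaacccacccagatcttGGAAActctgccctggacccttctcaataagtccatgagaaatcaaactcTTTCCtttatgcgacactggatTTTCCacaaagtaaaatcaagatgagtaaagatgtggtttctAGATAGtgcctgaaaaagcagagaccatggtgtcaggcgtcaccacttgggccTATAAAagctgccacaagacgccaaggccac
IL4: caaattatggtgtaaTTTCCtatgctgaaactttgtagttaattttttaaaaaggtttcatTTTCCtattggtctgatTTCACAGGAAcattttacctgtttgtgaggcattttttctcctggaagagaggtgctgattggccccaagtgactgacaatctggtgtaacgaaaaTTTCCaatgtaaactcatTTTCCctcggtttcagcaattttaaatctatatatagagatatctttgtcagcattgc
IL13RA1: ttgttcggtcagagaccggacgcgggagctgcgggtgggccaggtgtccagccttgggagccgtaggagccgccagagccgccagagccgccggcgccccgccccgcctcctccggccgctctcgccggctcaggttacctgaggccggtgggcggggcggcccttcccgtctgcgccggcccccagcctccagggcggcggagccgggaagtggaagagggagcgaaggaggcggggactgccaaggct
IL5RA: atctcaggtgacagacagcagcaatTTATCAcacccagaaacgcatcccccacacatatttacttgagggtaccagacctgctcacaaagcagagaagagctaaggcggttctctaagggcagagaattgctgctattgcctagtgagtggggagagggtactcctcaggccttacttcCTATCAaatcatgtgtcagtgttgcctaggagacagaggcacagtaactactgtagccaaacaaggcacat
The IL13 window held 1 GATA match, 3 NFAT matches and 1 TATA match, the last at bases -31 to -26 before the start. The IL4 window held 4 NFAT matches and 1 STAT match, at bases -172 to -163, and no GATA match. The IL5RA window held 2 GATA matches and none of the other patterns, and the IL13RA1 window none of the 4. Among 35116 promoter windows of the same length, 22.3% held a GATA match, 55.6% an NFAT match, 5.38% a STAT match and 10.7% a TATA match, and a match of letters is a description and not a binding site. The GC content was 48.8% for IL13, 34.8% for IL4 and 48.8% for IL5RA, against 75.6% for IL13RA1, 80.8% for IL4R and a median of 58.0% over all windows.

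Values are log2 levels, so a step of 1 doubles the signal. No detection call was given, and as background of an array served the 95th percentile of its 107 olfactory receptor probe sets, since such genes are silent in blood cells. This limit lay between 4.49 and 4.86 in 6 lines and at 5.59 in L-1236, so that weak genes were hardest to read there. U-HO1 stood apart in 18S ribosomal RNA, at 11.1 against 5.23 to 7.06 in the other lines, and in the excess of the 3′ over the 5′ ACTB probe set, at 2.11 against 0.06 to 0.54. Probe sets of the same gene also differed more in U-HO1 and L-1236, with an SD of 0.79 and 0.69, than in the other 5 lines, with 0.45 to 0.51. The arrays came from 2 laboratories and are not assigned to them, so laboratory and line cannot be told apart. A line had only 1 array, which gave no replicate error and allowed no test, and the precision is limited by that number. Instead, a difference between lines was set against 0.87, the SD of such a difference among the probe sets of a gene, taken from 5009 genes. RNA came from whole cultures, so fewer expressing cells and less RNA per cell cannot be told apart.

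IL13 was the most widely expressed of the 3 cytokines measured. Its single probe set read 8.94 in SUP-HD1, 8.56 in HDLM-2, 7.78 in L-428, 6.66 in L-1236, 6.05 in L-540, 4.37 in U-HO1 and 4.31 in KM-H2. The first 5 lines lay above background, with KM-H2 at -0.53 and U-HO1 at -0.22 relative to it. SUP-HD1 exceeded KM-H2 at least 17.1-fold and L-540 7.4-fold. Neighbours in this order that differed by less than the spread between probe sets were SUP-HD1 and HDLM-2, HDLM-2 and L-428, L-1236 and L-540, and U-HO1 and KM-H2. With background at the 90th percentile all 7 lines counted as above it, so the 2 low lines lie at the limit of reading and are not shown to lack IL13 transcripts.

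IL4 was weak. The brighter of its probe sets read 5.71 in HDLM-2, 4.36 in SUP-HD1, 3.38 in L-1236, 2.87 in L-540, 2.83 in KM-H2, 2.74 in U-HO1 and 2.70 in L-428. HDLM-2 alone was above background, by 0.85, and SUP-HD1 stood at -0.13 relative to it. At the other probe set HDLM-2 was again highest, at 4.81, and SUP-HD1 next, at 4.36, but no line was above background. HDLM-2 and SUP-HD1, the highest lines for IL4, were also the highest for IL13.

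IL5, the growth factor of eosinophils, was read in L-428. The level was 7.18 in L-428, 3.71 in L-1236, 3.36 in KM-H2, 3.11 in L-540, 2.97 in HDLM-2, 2.81 in SUP-HD1 and 2.51 in U-HO1. L-428 stood above background and the other 6 lines between -2.08 and -1.40 relative to it. L-428 exceeded the others by 3.47 or more, which is at least 3.0-fold against the background of L-1236 and at least 6.5-fold against that of SUP-HD1. Of 14495 genes above background in some line, 0.407% had L-428 at least 2 above every other line. The gene has a single probe set, so this value was not seen at another part of the transcript.

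**Figure D1:**
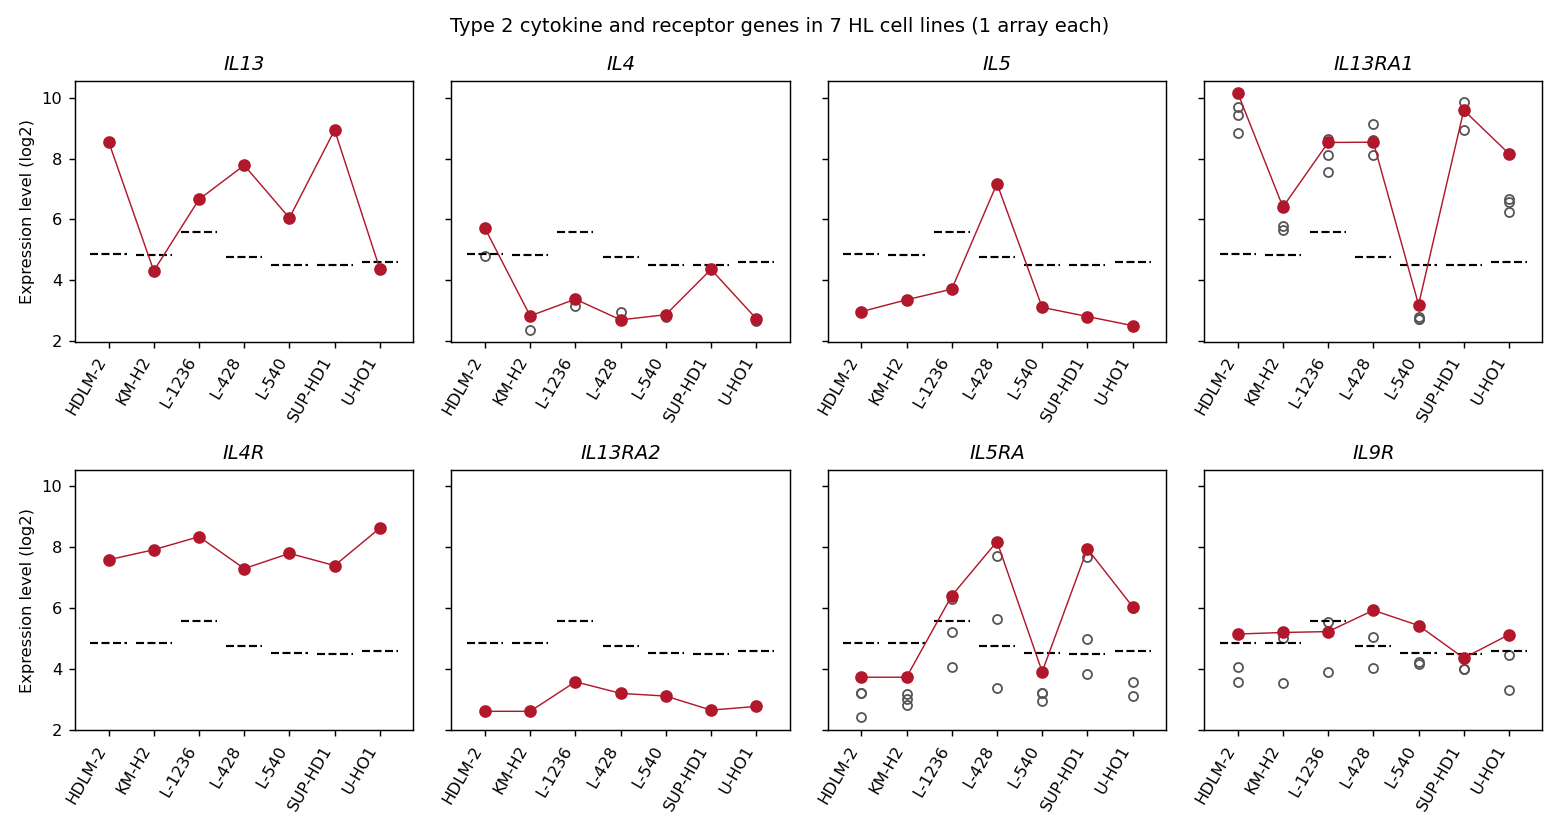
Expression levels (log2) of the 8 measured genes in the 7 HL cell lines, 1 array each. Red filled circles, joined to guide the eye, mark the brightest probe set of a gene, grey open circles its further probe sets, and dashed bars the background of each array. IL13 lies above background in 5 lines, IL5 in L-428, and IL13RA1 in every line except L-540.

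IL13RA1, the chain that binds IL13 and completes its receptor, had the largest difference between lines among the members. It read 10.16 in HDLM-2, 9.59 in SUP-HD1, 8.54 in L-428, 8.53 in L-1236, 8.16 in U-HO1, 6.41 in KM-H2 and 3.20 in L-540. L-540 stood at -1.31 relative to background and the other 6 lines above it. HDLM-2 exceeded L-540 by 6.96, at least 50.2-fold, and even KM-H2 exceeded it at least 3.7-fold. All 4 probe sets of the gene gave the same picture, since L-540 was lowest at each, between 2.72 and 3.20, with a gap of 2.92 to 3.68 to the next line. Of the 14495 genes above background in some line, 0.386% had L-540 at least 2 below every other line. The probe sets disagreed on U-HO1, which read 8.16 at one and 6.25 to 6.66 at the other 3, in the line where probe sets of the same gene differed most in general. Neighbours within the spread were HDLM-2 and SUP-HD1, and L-428, L-1236 and U-HO1.

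IL4R, the chain shared by the IL4 and IL13 receptors, was above background in all 7 lines, as were 34.6% of all genes. It read 8.63 in U-HO1, 8.35 in L-1236, 7.92 in KM-H2, 7.80 in L-540, 7.59 in HDLM-2, 7.40 in SUP-HD1 and 7.30 in L-428. The whole difference was 1.33, and every step in the order was smaller than the spread between probe sets. IL13RA2, the decoy receptor, stayed below background everywhere, from 2.61 in HDLM-2 and KM-H2 to 3.58 in L-1236, at its single probe set.

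IL5RA was high in a pair of lines. Its brightest probe set read 8.19 in L-428, 7.95 in SUP-HD1, 6.41 in L-1236, 6.05 in U-HO1, 3.91 in L-540, and 3.73 in both KM-H2 and HDLM-2. L-428 and SUP-HD1 did not differ beyond the spread, nor did L-1236 and U-HO1, and the last 3 lines were below background. L-428 exceeded L-540 at least 12.8-fold. A second probe set gave a like order, with 7.72 in L-428, 7.68 in SUP-HD1, 6.29 in L-1236, 6.0 in U-HO1 and the remaining lines below background. Another was above background in L-428 at 5.63 and in SUP-HD1 at 4.98, and the last in no line. The SD between the 4 probe sets was 0.89, against 0.33 for those of IL13RA1 and 0.57 over all genes.

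IL9R, the alpha chain for IL9, was weak and uncertain. Its leading probe set read 5.93 in L-428, 5.43 in L-540, 5.23 in L-1236, 5.20 in KM-H2, 5.15 in HDLM-2, 5.13 in U-HO1 and 4.36 in SUP-HD1. Each step in this order was within the spread, and 5 lines were above background by at most 1.18. The other probe sets were each above background in a single line, L-428 at 5.06 and KM-H2 at 5.03. IL9R has near-identical copies in the genome, so its reads cannot be assigned to this gene with certainty.

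Counted by line, 6 of the 8 members were above background in L-428, 5 in HDLM-2, 4 in each of L-1236, SUP-HD1 and U-HO1, and 3 in each of KM-H2 and L-540. The share of all genes above background was 56.0% in L-428, 53.4% in HDLM-2, 43.5% in L-1236, 58.8% in SUP-HD1, 57.4% in U-HO1, 54.1% in KM-H2 and 57.9% in L-540, so these small counts do not set the members apart from other genes. Above background in at least 1 line were 7 of the 8 members, all but IL13RA2, against 73.3% of all genes, and in exactly 1 line 2 members, IL4 and IL5, against 8.38%. A difference of at least 2 between lines was found for 5 members, namely IL13, IL4, IL5, IL13RA1 and IL5RA, and for 50.1% of the 14495 genes above background in some line. The same 5 members differed by at least 3, as did 22.4% of those genes. With levels below background raised to it, 4 members differed by at least 2, IL4 dropping out at 1.22, against 36.9% of those genes.

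Each cytokine was then set beside its receptor, to see in which lines a loop within the same culture would have both parts at the RNA level. IL13, IL13RA1 and IL4R were all above background in 4 lines, HDLM-2, L-1236, L-428 and SUP-HD1. L-540 had IL13 and IL4R without IL13RA1, and KM-H2 and U-HO1 had both receptor chains without IL13 above background. With background at the 90th percentile IL13 was above it in all 7 lines and IL13RA1 in 6, so the lines holding this full set depend on that limit. IL4 and IL4R were together above background in HDLM-2 alone, where IL13RA1 and IL2RG were above it too. IL4 exceeded background there by 0.85 at its brighter probe set, and in no line at the other. The full IL4 set therefore depends on the probe set read.

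For IL5 the alpha chain and the beta chain did not go together. IL5 and IL5RA were both above background in L-428, but CSF2RB, the signalling chain, read 2.82 there, at -1.93 relative to background. CSF2RB was at 8.45 in KM-H2, 8.0 in HDLM-2, 7.59 in L-1236 and 7.53 in L-540, and below background in L-428, SUP-HD1 at 3.15 and U-HO1 at 3.63. L-1236 was the single line with IL5RA and CSF2RB both above background, and IL5 was below it there. Thus 0 lines had IL5 and both receptor chains above background, at 1 probe set each for IL5 and CSF2RB. IL2RG read 10.17 in L-1236, 9.79 in L-428, 9.62 in L-540, 9.60 in KM-H2 and 9.40 in HDLM-2, against 5.58 in U-HO1 and 4.27 in SUP-HD1, the last below background. SUP-HD1 therefore had IL4R and IL13RA1 above background and IL2RG at -0.22 relative to it, at its 1 probe set. This lies at the limit of reading, so SUP-HD1 is not shown to lack IL2RG transcripts. Of the chains for related cytokines, IL3RA ranged from 4.38 in KM-H2, below background, to 9.31 in U-HO1, and CSF2RA was below background in all lines.

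**Figure D2:**
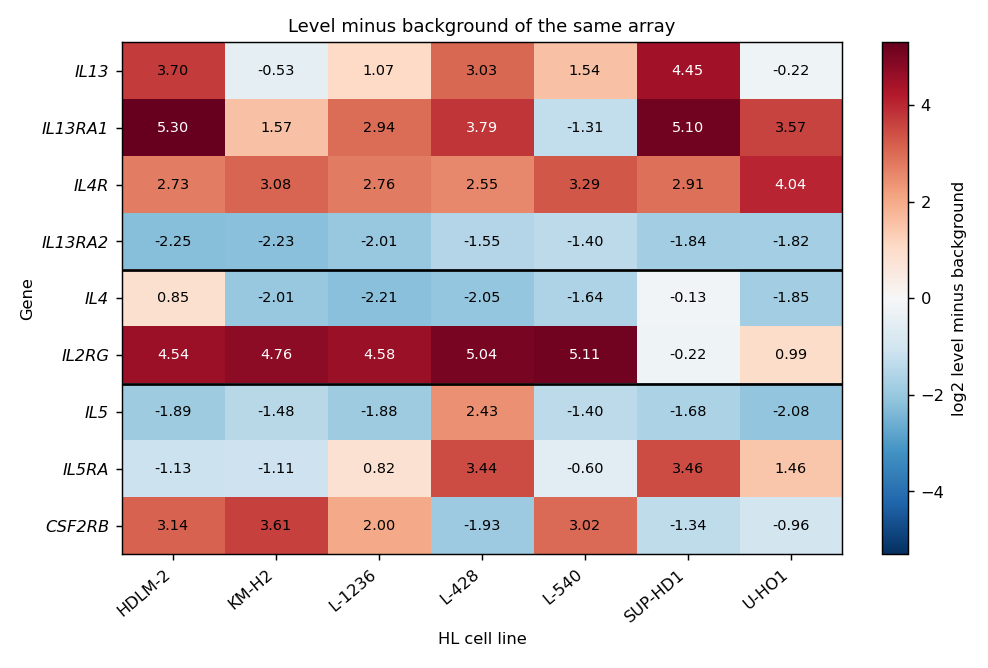
Level minus the background of the same array (log2) for cytokines and their receptor chains, by gene (rows) and HL cell line (columns), 1 array each. Red is above and blue below background, and the black rules separate the IL13, IL4 and IL5 systems. IL13, IL13RA1 and IL4R are all red in HDLM-2, L-1236, L-428 and SUP-HD1, whereas IL5 and CSF2RB are red together in no line.

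Correlations over the lines are given as descriptions, since 7 arrays that share 1 normalization and 2 unassigned laboratories carry little information. IL13 and IL13RA1 had r = 0.55 over the 7 lines, a value that 9.9% of 14494 genes reached or exceeded with IL13. Without L-540 r was 0.86 over 6 lines, a value that 1.27% of genes reached, and with the other IL13RA1 probe sets it ran from 0.97 to 1.0. L-540 was singled out after its value was seen. IL13 and IL4R had r = -0.73, which became -0.484 with quantile normalization applied again. For IL13 and IL4 r was 0.70, with IL4 above background in HDLM-2 alone. IL5 and IL5RA had r = 0.50, which rests on L-428, since r was -0.202 without it.

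IL13, IL4 and IL5 lie in a gene cluster at 5q31, and the neighbouring genes were read to see whether the region as a whole followed the cytokines. The nearest gene upstream of IL13 is RAD50, a DNA repair gene whose introns are known to hold control elements for the cytokines. It read 8.70 in HDLM-2, 8.61 in L-428, 8.32 in SUP-HD1, 7.94 in L-540, 7.69 in L-1236, 7.42 in U-HO1 and 6.71 in KM-H2. The 3 lines highest for RAD50 were also the 3 highest for IL13, and the 2 lowest were the same as well. Each step in the RAD50 order was smaller than the spread between probe sets, however, and the 2 lowest IL13 values were below background. Only the brightest of 3 RAD50 probe sets was used here. RAD50 and IL13 had r = 0.89 over the 7 lines, which 0.262% of genes reached, on a RAD50 difference of 1.99 between lines against 4.63 for IL13. The r of P4HA2, a collagen prolyl hydroxylase, was 0.79, with levels of 10.44 in L-428, 10.33 in L-1236, 9.94 in SUP-HD1, 9.32 in HDLM-2, 8.98 in L-540, 6.83 in U-HO1 and 3.82 in KM-H2.

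The other neighbours did not share the order. KIF3A, a kinesin motor next to IL4, read 7.25 in SUP-HD1 and U-HO1, 7.22 in L-540 and 3.46 in L-1236, the last below background. The carnitine transporter gene SLC22A4 was highest in U-HO1, at 8.80, and SUP-HD1, at 7.85, and SLC22A5 stayed between 4.98 and 6.19. SEPTIN8 ran from 6.25 in L-540 to 9.65 in KM-H2, IRF1, an interferon response factor, from 6.10 in L-1236 to 7.72 in KM-H2, and PDLIM4 from 4.72 to 6.22. IL3, a growth factor for myeloid progenitors, was below background in all lines at its single probe set. ACSL6, a fatty acid ligase, was so at 4 of its 5 probe sets, the brightest included, and above background at the other in L-428 alone, at 5.44. Of 13 genes measured in the region, 11 were, at their brightest probe set, above background in some line, against 73.3% of all genes. Of these, 7 differed by at least 2 between lines, against 50.1% of all genes above background in some line. With levels below background raised to it, KIF3A and IL4 among the 7 differed by less, 1.66 and 1.22. The median difference of the 11 was 3.40, against 2.0 for all genes above background in some line. The 3 cytokine genes are among those 13.

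**Figure D3:**
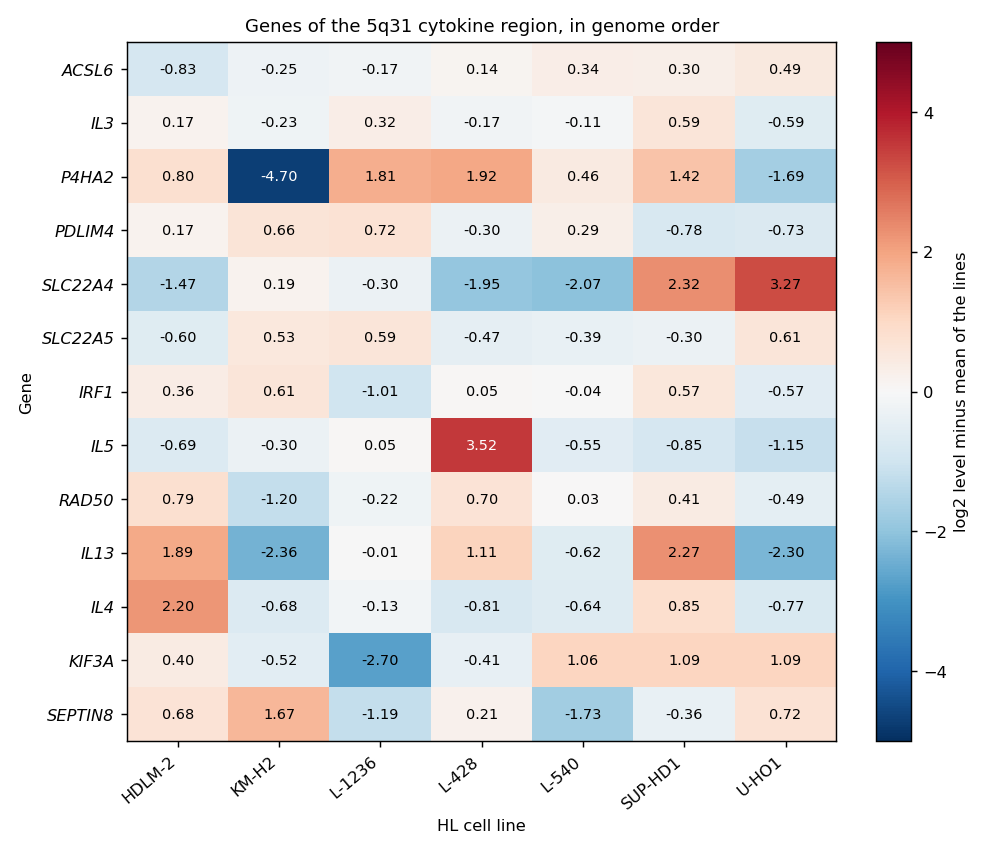
Level minus the mean of the lines (log2) for the 13 measured genes of the 5q31 cytokine region in genome order (rows) in 7 HL cell lines (columns), 1 array each. Red is above and blue below the mean of the lines. IL5 stands out in L-428 at 3.52, IL13 is highest in SUP-HD1 at 2.27 and HDLM-2 at 1.89, and RAD50 and P4HA2 are lowest in KM-H2 as IL13 is.

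The kinases and STAT factors used by these receptors were present in every line. Of 10 genes for signalling downstream of IL4R, all were above background in some line and 8 in all 7, and 4 differed by at least 2. Among all genes, 73.3% were above background in some line and 34.6% in all 7, and 50.1% of the former differed by at least 2. STAT6 itself read 10.01 in L-1236, 9.40 in L-428, 9.28 in U-HO1, 8.53 in L-540, 8.31 in SUP-HD1, 8.19 in HDLM-2 and 8.14 in KM-H2. The lines with the most IL13, SUP-HD1 and HDLM-2, were thus among the lower ones for STAT6 transcripts. KM-H2, with the lowest IL13 reading, was the lowest, and the lower lines differed by less than the spread between probe sets. STAT6 and IL13 had r = -0.12. JAK1, JAK3, TYK2 and STAT3 differed by 1.63, 1.96, 1.35 and 1.53. JAK2 ran from 4.91 in U-HO1 to 9.44 in HDLM-2, STAT5A from 6.23 in L-1236 to 9.21 in L-428, and STAT5B from 6.72 in L-1236 to 9.53 in HDLM-2. Of the insulin receptor substrates that IL4R can engage, IRS2 ran from 3.0 in KM-H2 to 9.23 in U-HO1 and IRS1 from 4.51 to 5.99.

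All 7 inhibitors of this signalling that were listed were above background in some line, and 4 differed by at least 2. The shares over all genes were 73.3% and, of those, 50.1%. SOCS1, a feedback inhibitor of JAK kinases, was between 7.52 and 10.12 in 6 lines and at 2.87 in U-HO1. CISH, a feedback inhibitor known as a STAT5 target, read 10.86 in HDLM-2, 10.37 in L-540, 8.99 in L-428, 8.92 in L-1236, 8.09 in SUP-HD1, 6.91 in U-HO1 and 5.64 in KM-H2, so that the 2 lines with IL13 below background were the lowest. SOCS2 ran from 5.09 in L-1236 to 10.55 in KM-H2 and SOCS3 from 4.38 in KM-H2 to 10.63 in L-540. The phosphatase genes PTPN1 and PTPN2 differed by 1.94 and 1.53.

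Among 16 transcription factors known to act at type 2 cytokine genes, 15 were above background in some line and 7 in all lines. These stand against 73.3% and 34.6% of all genes. Of the 15, 12 differed by at least 2, against 50.1% of all genes above background in some line. GATA3, the master regulator of T-helper type 2 cells, was high in all 7 lines, from 8.26 in L-540 to 11.23 in L-428, the line with IL5. It was high as well in the lines without IL13 above background, at 10.76 in U-HO1 and 10.09 in KM-H2. MAF, a factor for IL4, was above background in KM-H2 at 7.64, HDLM-2 at 7.52 and L-1236 at 6.0. PPARG, a nuclear receptor used by type 2 cells, was above background in HDLM-2 at 8.95, SUP-HD1 at 8.27 and L-540 at 5.43. HDLM-2 and SUP-HD1 were also the highest lines for IL13 and IL4. In L-428 and L-1236, however, PPARG was below background, at 3.43 and 3.92, although IL13 was above background in both. ETS1 was at 2.51 in SUP-HD1 and between 6.30 and 9.94 elsewhere. NFATC2 was highest in U-HO1 at 8.66, GFI1 in SUP-HD1 at 7.56, and BCL6, which opposes type 2 cytokine expression, ran from 5.17 in L-1236 to 9.10 in L-540.

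Genes known to respond to IL4 and IL13 did not share one order. Of 13 measured, 8 were above background in some line and 5 of these differed by at least 2, against 73.3% and 50.1% for all genes. CCL17, a chemokine that attracts T-helper type 2 cells, read 13.07 in HDLM-2, 11.76 in L-428, 10.09 in U-HO1, 9.46 in SUP-HD1, 7.34 in KM-H2, 6.84 in L-1236 and 6.64 in L-540. It was thus high in U-HO1, where IL13 was below background, and low in L-1236, where IL13 and its receptor were above it. CCL22, a chemokine for the same receptor, was highest in HDLM-2 at 7.96. FCER2, the low-affinity IgE receptor, was at 9.24 in HDLM-2 and 8.84 in L-1236 and at most 4.72 in the other lines. ALOX15, a lipoxygenase strongly induced by IL4 and IL13 in monocytes, was at 8.27 in L-1236 and below background in all other lines. MAOA, a monoamine oxidase with the same response, read 10.84 in L-1236, 10.06 in U-HO1, 8.73 in SUP-HD1, 8.23 in L-540, 6.92 in L-428, 4.75 in HDLM-2 and 3.36 in KM-H2. CD209, a lectin of dendritic cells, differed by 1.86. L-540, which lacked IL13RA1 above background, had the lowest CCL17 level but a MAOA level above that of 3 lines.

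**Figure D4:**
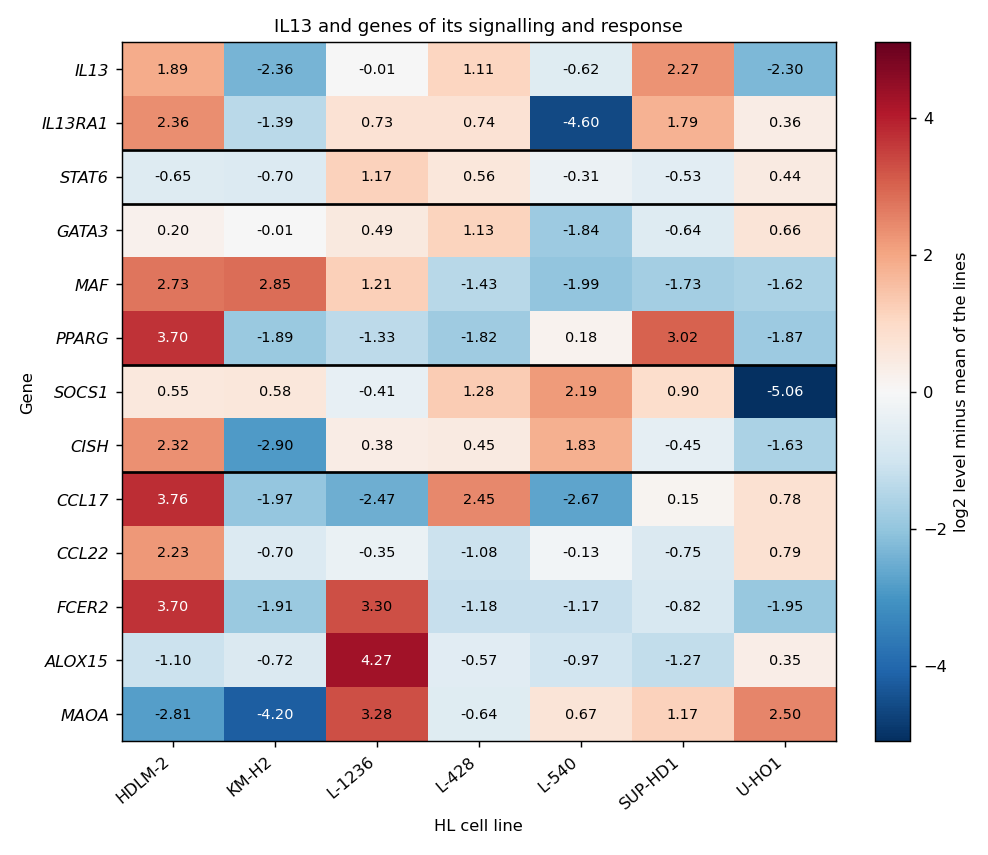
Level minus the mean of the lines (log2) of IL13, IL13RA1, STAT6, transcription factors, feedback inhibitors and response genes (rows, divided by black rules) in 7 HL cell lines (columns), 1 array each. Red is above and blue below the mean. HDLM-2 is high for IL13, IL13RA1, PPARG, CCL17, CCL22 and FCER2, while ALOX15 and MAOA are highest in L-1236.

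The labelled cell type was checked against markers. Of 7 genes of Hodgkin/Reed-Sternberg cells, between 6 and 7 were above background in each line. TNFRSF8, the CD30 gene, was the one below it in SUP-HD1, at 4.36, and TRAF1 the one in L-1236, at 4.97. B-cell markers above background numbered 1 to 4 of 6 by line, with MS4A1 below it in all at each of its 4 probe sets. T-cell markers above it numbered 2 to 5 of 9, with LCK below background in all. Between 43.5% and 58.8% of all genes were above background by line. CD79B was below background at its brightest probe set, but at the others it was above it in L-1236, at 5.72, and in SUP-HD1, at 4.51. CD2 was at 8.95 in HDLM-2 and 7.28 in L-540, but below background in KM-H2, at 2.67. CD3D was at 8.89 in KM-H2, but below background in HDLM-2, at 4.36. CD4 was above background in 6 lines, all but SUP-HD1, and highest in KM-H2 at 8.46. PAX5 was above it in 6 lines, all but L-428, and highest in U-HO1 at 8.18. BLK was above it in 4 lines and highest in L-540 at 8.08. Markers of the same list thus differed in direction within a line. For eosinophils, which also make and receive these cytokines, at most 1 of 5 markers was above background in a line. It was CLC in HDLM-2, at 7.0, the line with IL4 above background at the brighter of its probe sets. In SUP-HD1 and KM-H2 it was PRG2, at 5.42 and 5.38. EPX, RNASE2 and SIGLEC8 were below background in all lines at every probe set. Of 3 mast cell markers at most 1 was above background in a line and of 3 macrophage markers at most 2, TPSAB1 being highest in L-1236 at 6.15 and CSF1R in L-540 at 7.65. The part of other cell types in the cytokine levels was not tested.

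The genes most like each cytokine over the 7 lines were sought among 7264 genes with a difference of at least 2. For IL13 they were ULBP1 (r = 0.973), C3orf38, PTPRB, USP30-AS1 and ZNF544, the last with r = 0.941. For IL4 they were SPATA6L (r = 0.969), PDCD1LG2, KDELR3, MT1E and PTPRCAP (r = 0.955). IL4 was above background in HDLM-2 alone, so its r values rest mostly on levels below background. PDCD1LG2, which encodes the PD-1 ligand PD-L2, read 9.33 in HDLM-2, 7.54 in SUP-HD1 and 6.20 or less in the other lines. For IL5 they were TSPAN8 (r = 0.99), IGSF9, CERS6, TMEM255A and ARMCX2 (r = 0.98), and each of these was highest in L-428. IL5 was above background in L-428 alone, so genes picked by a high r with it are highest there by that choice. Without L-428 the lowest r of the 5 was 0.589. For each cytokine these genes are the top of a search over 7264, so their high r values are no evidence of a link.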

How the data were processed

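RNA of 7 HL cell lines was hybridised to HG U133 Plus arrays, 1 per line, and lines were named from the sample titles. The authors ran RMA, which subtracts background, normalizes by quantiles and summarises probes, and deposited the resulting log2 levels of each probe set to 2 decimals. The submitters' processing notes name RMA, affy and limma, with versions not given in the sources used here. All value columns were used, unused columns numbered 0 and missing values 0. Quantile normalization gives all arrays nearly the same distribution and can shift weak genes of an array with a higher background, such as L-1236.

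Probe sets were named with the platform annotation provided. A single gene was given for 41097, several for 1801 and none for 11777, and 41043 of the former took their current symbol from a RefSeq gene table, matched by gene number. No other coordinates than those of promoter windows are printed. IL9 and CSF2 are not reported here. Each gene was represented by its brightest probe set, averaged over all lines. Background was, per array, the 95th percentile over 107 probe sets for olfactory receptors, and a fold against a level below background was taken against that background and written as at least. The SD between probe sets of a gene, 0.57, was pooled over the 13716 probe sets of 5009 genes whose every probe set was above background in some line. No test between lines was possible. The members, the gene lists and the alternatives were chosen with earlier results of these data known. Genes named are all members at every probe set, all of the shared receptor chains, JAK-STAT6 signalling and 5q31 lists, in other lists up to 6 genes with the largest difference among those above background in some line, and the 5 genes most like each cytokine. MS4A1, CD79B, LCK, GATA3, EPX, RNASE2, SIGLEC8, IL33 and TSLP fall outside this rule and were named after their values were seen. The other settings were another probe set rule, other scaling, other backgrounds, a difference of 3, and lines left out. The script that counts differences was tested on simulated data. Python 3.11.15, numpy 2.4.6 and pandas 2.3.3 were used.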

Additional observations from a re-analysis of the deposited data

Results flagged for a closer look

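Of 80 genes examined, 8 had a line whose gap to the next line exceeded Dixon's limit for 7 samples, and chance alone does this in about 1 in 20 groups. Part of these genes entered for their large differences, so that rate is no chance level for them. IL5 in L-428 was at 7.18, with L-1236 next at 3.71. SOCS1 in U-HO1 was at 2.87, far from L-1236, the nearest line at 7.52. ALOX15 in L-1236 was at 8.27 against 4.35 in U-HO1, CD209 there at 6.22 against 4.97 in L-540, and TPSAB1 there at 6.15 against 4.97 in L-428. KIF3A in L-1236 was at 3.46, below the background there, and KM-H2 came nearest at 5.64. IL17RB in U-HO1 was at 7.24 against 4.63 in HDLM-2, and CD3D in KM-H2 at 8.89 against 4.84 in L-1236. Background was highest in L-1236, at 5.59, and CD209 and TPSAB1 exceeded it by less than 1 there.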

How the results depend on the processing

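No paired analysis was possible because only 1 array per line was analysed. Of 280 member levels relative to the mean of the lines, 260 moved by less than 0.57. The sign turned for 10, and 3 of these moved further than that, IL13RA1 in U-HO1 from 0.36 to -0.88 with the most variable probe set and -0.47 with the mean of its probe sets, and IL5RA in U-HO1 from 0.34 to -0.54 without probe sets ending in _x_at or _s_at. The count of 5 members with a difference of at least 2 stayed between 4 and 6. That of 29 member and line combinations above background reached 32 with background at the 90th percentile. It fell to 21 without L-1236 and U-HO1 together, a setting that also has fewer combinations to count. Line and pair combinations with both genes above background numbered 11 over the 6 cytokine and receptor pairs analysed. They ran from 8 without HDLM-2 to 15 with background at the 90th percentile. IL9R was above background in 1 line when read by its most variable probe set. IL5RA was so in 2 lines without those ending in _x_at or _s_at, and IL4 in 0. With each line left out, the r of IL5 with IL5RA ran from -0.202 without L-428 to 0.743 without SUP-HD1. The r of IL13 with IL4R was -0.484 with quantile normalization applied again. The lists moved as follows, and the cause was not tested. With the probe set of largest variance 7 signalling genes differed by at least 2. With the mean of all probe sets 5 response genes were above background. Without _x_at and _s_at probe sets, fewer genes were read, 3 alarmin receptors were above background, all 3 differing by at least 2, and 4 inhibitors, 2 of them differing so. At the 99th percentile as background 0 alarmin cytokines were above it, 0 differing, and 1 type 2 surface gene differed. At a difference of 3 there were 0 alarmin cytokines, 3 alarmin receptors, 2 signalling genes and 1 surface gene. Without L-1236 and U-HO1 together 0 alarmin cytokines were above background and 0 differed. With each line left out, alarmin cytokines that differed ran from 0 to 1, surface genes from 1 to 2, and the lowest r of the 5 genes like IL5 from 0.589 without L-428 to 0.984. Signal over background limits all weak genes, above all in L-1236.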

Other observations

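Epithelial alarmins are cytokines that induce type 2 cytokines. They were listed with further type 2 cytokines, and 4 genes of that list were measured. TSLP, IL33 and IL3 were below background in all lines, at 1 probe set each. IL25 was above it in L-1236, at 5.85, and U-HO1, at 5.15. Each of the 5 alarmin receptor genes was above background in at least 1 line and differed by at least 2. Of all genes 73.3% were above background in some line, and 50.1% of those differed so. CRLF2, the TSLP receptor, read 9.17 in L-428, 7.08 in HDLM-2, 5.98 in SUP-HD1, 5.83 in L-540, 4.46 in KM-H2, 4.40 in L-1236 and 3.96 in U-HO1, the last 3 below background. Its partner IL7R was above background in L-540 at 6.45, SUP-HD1 at 6.37 and HDLM-2 at 6.33, so L-428 had CRLF2 without IL7R, at 3.82. IL1RL1, the IL33 receptor, was highest in L-428 at 7.08, the line with IL5, and next in L-1236 at 6.32, while its partner IL1RAP was below background in both. IL17RB, a receptor for IL25, exceeded background in a single line, U-HO1, at 7.24. Only the brightest of its 3 probe sets, which ends in _x_at, was used here. U-HO1 is also the line that stood apart in ribosomal RNA and where probe sets of the same gene differed most. By quantitative PCR of HL cell lines, the paper found significant IL17RB activity in DEV only, a line not profiled here. The array value in U-HO1 differs from that result, and the reason was not tested.

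Of 5 surface genes of type 2 T-cells that were measured, 3 were above background in some line, against 73.3% of all genes. CCR4, the receptor for CCL17 and CCL22, read 8.51 in L-428, 7.52 in HDLM-2, 5.09 in KM-H2, 4.99 in L-1236, 4.84 in U-HO1, 3.55 in SUP-HD1 and 3.38 in L-540. The 2 lines with the most CCR4 were also those with the most CCL17. CCR8 was above background in HDLM-2, at 5.29, and PTGDR2, the prostaglandin D receptor, differed by 1.2 between lines.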
